A study of Homo sapiens with 6 samples.

Results

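The transcripts described here are those of 10 genes of the NF-κB system among the 60612 genes of the deposited table: the 5 subunits NFKB1, NFKB2, RELA, RELB and REL, and 5 genes that restrain or tune NF-κB, namely NFKBIA, NFKBIE, NFKBIZ, TNFAIP3 and BIRC3. They were chosen by name, for their place in the pathway, but with earlier results of these data known. RNA was sequenced from U87, an established human glioblastoma cell line, in 3 libraries with a control shRNA (NC) and 3 libraries with an shRNA against PRMT6 (shPRMT6), an arginine methyltransferase of histones and other proteins. Both groups received their shRNA by lentivirus with polybrene, and the stable cells were selected with puromycin. Which of the designed PRMT6 shRNAs was sequenced is not named. The shPRMT6 libraries are labelled shRNA-1 to shRNA-3, as the controls are NC-1 to NC-3, and the study's supplement also lists 3 PRMT6 shRNAs. The numbers were read as replicates, and a single shRNA was assumed for the 3 shPRMT6 libraries. An effect of PRMT6 loss and an effect of the shRNA on other transcripts cannot be told apart. The methods call the replicates independent, but no label says that they came from separate transductions, so the p-values below may measure technical spread only.

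NF-κB factors are dimers of Rel-family subunits that bind κB sites in DNA. In resting cells, IκB proteins hold the dimers in the cytoplasm, and the IKK kinase, activated downstream of cytokine and Toll-like receptors, marks the IκB proteins for destruction so that the dimers can enter the nucleus. Many genes of the system, including several subunits, IκB proteins and the ubiquitin-editing enzyme encoded by TNFAIP3, are themselves induced by NF-κB, which makes negative feedback. In glioblastoma, NF-κB is known for its part in inflammatory and mesenchymal gene expression.

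The promoters of several members hold matches to the κB consensus GGGRNNYYCC (R is A or G, Y is C or T, N is any base). Some are shown, picked without a score, since NF-κB is known to act on its own genes through such sequences. The sequences are those of RefSeq on GRCh38.p14, searched on both strands from 250 bases before to 50 bases after each transcription start. They are written 5′ to 3′ along the transcribed strand, with the 10-base match, or the run of overlapping matches, in capitals. Stretches of 50 bases are shown where they lie outside annotated exons, and shorter ones where they touch an exon.
NFKB1: tcagtGGGAATTTCCagcca
NFKB2: gtcatGGGAATTCCCCcctcc
NFKB2, next start: ttttcGGGACTTTCCtaagc
REL: gccgcGGGAAATTCCCctccc
NFKBIA: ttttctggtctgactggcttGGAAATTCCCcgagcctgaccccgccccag
NFKBIZ: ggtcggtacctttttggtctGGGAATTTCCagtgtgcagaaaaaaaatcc
TNFAIP3: actttGGAAAGTCCCgtgga
TNFAIP3, second match: cccgtGGAAATCCCCgggcc
BIRC3: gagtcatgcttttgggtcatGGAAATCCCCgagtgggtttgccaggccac

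The NFKB1 stretch is chr4:102501305-102501324 on the plus strand. The NFKB2 stretches are chr10:102394466-102394486 and chr10:102395679-102395698 on the plus strand, and lie in annotated NFKB2 exons. They come from the windows of NFKB2 starts 2 and 3, and the window of start 1 held 0 matches. The REL stretch is chr2:60881522-60881542 on the plus strand. The NFKBIA stretch is chr14:35404801-35404850 on the minus strand. The NFKBIZ stretch is chr3:101827747-101827796 on the plus strand. The TNFAIP3 stretches are chr6:137867187-137867206 and chr6:137867199-137867218 on the plus strand, and overlap each other. The BIRC3 stretch is chr11:102317265-102317314 on the plus strand. The REL and TNFAIP3 stretches overlap first exons of those genes. That of NFKB1 overlaps an exon of AF213884.3 and ends just before the annotated start of NFKB1. NFKB2 and BIRC3 each held further matches, as did the second start of NFKBIZ.

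**Figure D1:**
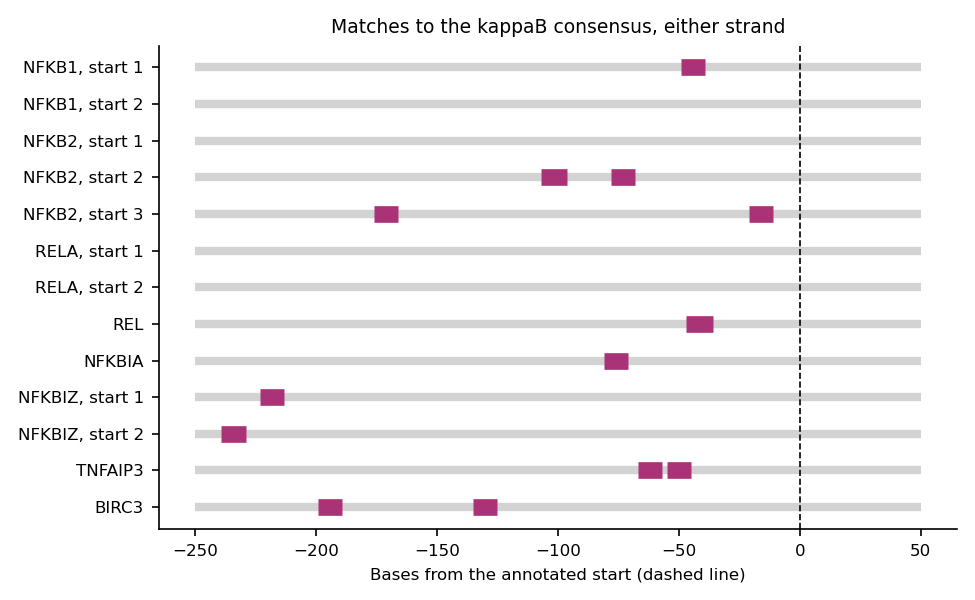
Matches to the κB consensus in the promoter windows of the members, plotted by distance in bases from the transcription start. Each line is 1 RefSeq promoter window and each mark is a match or a run of overlapping matches on either strand, and the windows of 7 of the 8 genes with an entry hold at least 1.

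Of the 8 members with a promoter entry, 7 held a match in at least 1 window, in 9 of their 13 windows. RELA, the member without one, encodes an activating subunit found in most cell types. RELB and NFKBIE had no entry. Over all RefSeq promoter windows of this length, 11.3% held a match, and counted by gene, 13.3%. A match is a description of letters and does not show that a factor binds there.

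The libraries held 56388161 to 75887696 counts, and libraries of 1 group differed from each other beyond counting error. PRMT6 itself had 9.33, 7.97 and 7.19 CPM (counts scaled to library size with TMM factors) in NC replicates 1, 2 and 3, and 3.57, 4.58 and 5.24 CPM in shPRMT6 replicates 1, 2 and 3. Its groups did not overlap, and its log2 fold change was -0.87 (SE 0.187, edgeR adjusted p = 0.0225), although the call was lost without NC replicate 1 (adjusted p = 0.0613), without shPRMT6 replicate 1 (0.0588) and without shPRMT6 replicate 2 (0.0713). Of 7 glioma and mesenchymal markers, VIM, CD44, FN1, TNC and SPARC were at 329 CPM or more in every library, NES was at 38.3 to 45.7 CPM and CHI3L1 at 2.71 to 12.2 CPM. Of 6 astrocyte and oligodendrocyte lineage markers, AQP4, S100B and SOX10 were at 0, GFAP reached at most 0.885 CPM, MBP 2.71 CPM and OLIG2 3.20 CPM. CDKN2A, CDKN2B and MTAP, genes of the region that U87 has lost, were at or below 0.434 CPM. Of the immune markers, 3 of 5 were at 0 in every library, and their summed level was at most 0.0526 CPM in NC and 0.118 CPM in shPRMT6. Summed epithelial markers were low, at 1.14 to 1.59 CPM in NC and 0.422 to 0.832 CPM in shPRMT6, and summed endothelial markers, nearly all PECAM1, were at 2.55 to 3.23 CPM and 3.66 to 5.23 CPM; their part in the results was not tested. The share of counts from the mitochondrial genome was 7.06% to 7.85% in NC and 9.69% to 10.2% in shPRMT6. A fit without those genes called the same number of members, 6.

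The comparison of shPRMT6 with NC asked what changes in these cells when PRMT6 is reduced. All 10 members passed the filter on low counts, as did 18106 genes in all. NFKB1, NFKB2, NFKBIA, NFKBIE, NFKBIZ and TNFAIP3 were lower in shPRMT6 and none was higher, by edgeR's quasi-likelihood test at an adjusted p under 0.05. Thus 6 of 10 members were called, against 18.6% of all tested genes in either direction, 9.06% lower and 9.51% higher. The median log2 fold change was -0.54 over the members and -0.01 over all tested genes, and the log2 fold change was below 0 for 10 of 10 members. The libraries of the groups did not overlap, with shPRMT6 lower, for 7 of 10 members and for 19.9% of all tested genes. No member reached a log2 fold change beyond 1 with an unadjusted p under 0.05, which is the threshold of the study's methods. In bulk RNA, fewer cells that transcribe a gene and less RNA per cell cannot be told apart.

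**Figure D2:**
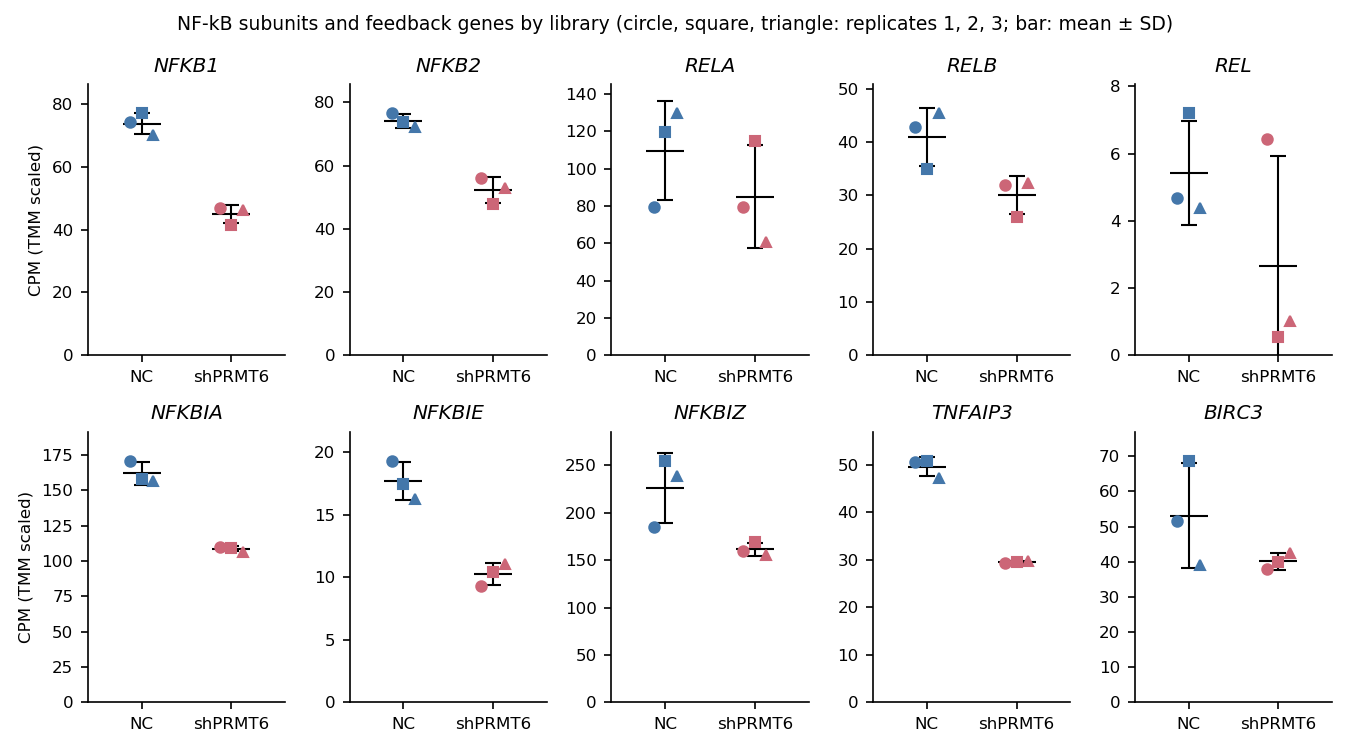
CPM of the 10 members in each library, with 1 panel per gene and its own linear axis from 0. Points are libraries and bars are the mean and SD of 3; the lower SD bar of REL in shPRMT6 would pass below 0 and is cut at the axis. NFKB1, NFKB2, RELB, NFKBIA, NFKBIE, NFKBIZ and TNFAIP3 have every shPRMT6 library below every NC library.

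NFKB1 and NFKB2 encode precursor proteins whose N-terminal parts become DNA-binding subunits, while the unprocessed forms retain other subunits in the cytoplasm as IκB-like inhibitors. NFKB1 (ENSG00000109320, chr4:102501329-102617302, plus strand of GRCh38) had 74.4, 77.1 and 70.3 CPM in NC replicates 1, 2 and 3, and 46.9, 41.6 and 46.2 CPM in shPRMT6. Every shPRMT6 library lay well below every NC library. The means were 73.9 ± 3.45 and 44.9 ± 2.88 CPM (SD, n = 3 libraries each), or 60.8% of the NC level, and the log2 fold change was -0.72 (SE 0.0760, 95% interval -0.90 to -0.54, edgeR adjusted p = 0.00213).

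NFKB2 (ENSG00000077150, chr10:102394110-102402529, plus strand) had 76.5, 73.9 and 72.1 CPM in NC and 55.98, 47.9 and 52.9 CPM in shPRMT6. The groups were apart, and shPRMT6 replicate 2 was the lowest library, as it was for NFKB1. The mean fell from 74.2 ± 2.19 to 52.2 ± 4.08 CPM (SD, n = 3 each), to 70.4% of NC, with a log2 fold change of -0.51 (SE 0.0771, 95% interval -0.69 to -0.32, edgeR adjusted p = 0.00698).

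RELA, RELB and REL encode the subunits with transactivation domains, and none of these passed the test. RELA (ENSG00000173039, chr11:65653596-65663094, minus strand) had 79.6, 120 and 130 CPM in NC and 79.4, 115 and 60.8 CPM in shPRMT6. The libraries of both groups were mixed, with NC replicate 1 almost level with shPRMT6 replicate 1 and shPRMT6 replicate 2 near the upper NC libraries. The log2 fold change was -0.37 (SE 0.270, 95% interval -1.01 to 0.28, edgeR adjusted p = 0.405). The interval contains changes as large as those of NFKB1 and NFKB2, so a fall of that size in RELA could not be told from none in these libraries. Among tested genes of like level (within 0.5 on the log2 CPM scale), the spread of RELA within groups lay at percentile 93.7, and those of NFKB1 and NFKB2 at 31.7 and 35.3. Its log2 fold change moved from -0.17 without shPRMT6 replicate 3 to -0.64 without shPRMT6 replicate 2.

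RELB, the partner of processed NFKB2 in the non-canonical pathway (ENSG00000104856, chr19:45001430-45038198, plus strand), had 42.8, 34.9 and 45.4 CPM in NC and 32.0, 25.9 and 32.3 CPM in shPRMT6. The groups did not overlap, although NC replicate 2 came close to the upper shPRMT6 libraries. The means were 41.0 ± 5.44 and 30.0 ± 3.63 CPM (SD, n = 3 each). The log2 fold change was -0.45 (SE 0.135, 95% interval -0.77 to -0.13), and the edgeR adjusted p of 0.0655 missed the threshold. RELB passed without NC replicate 2 (log2 fold change -0.55, edgeR adjusted p = 0.0339). With the replicate number as a block it also passed (-0.45, edgeR adjusted p = 0.0387). Samples of the same number did not deviate together, however, so that fit adds little, and it no longer called PRMT6 or NFKBIZ. RELB passed in DESeq2 too (adjusted p = 0.00494), a test that made more false calls on simulated counts. Fewer genes were changed in that simulation than were called here.

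REL, which encodes the c-Rel subunit best known from lymphocytes (ENSG00000162924, chr2:60881521-60931610, plus strand), was the lowest member. It had 262, 547 and 274 counts in NC and 409, 33 and 69 in shPRMT6, or 4.69, 7.19 and 4.39 CPM against 6.42, 0.536 and 1.02 CPM. In shPRMT6, replicate 1 was among the highest of all libraries while replicates 2 and 3 were the lowest. The log2 fold change of -1.03 (SE 0.858, 95% interval -3.08 to 1.02, edgeR adjusted p = 0.464) is therefore uncertain in size and sign. Without shPRMT6 replicate 1 the log2 fold change was -2.80 (edgeR adjusted p = 0.0172), and without shPRMT6 replicate 2 it was -0.54. In GENCODE 29, 43.3% of the exon bases of REL overlap AC010733.2 on the same strand, and 42.5% of its 75-base stretches also occur in other genes, so its counts depend on how shared reads were assigned.

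The IκB proteins bind NF-κB dimers. NFKBIA, which encodes IκBα, the inhibitor degraded and resynthesised within each round of signalling (ENSG00000100906, chr14:35401511-35404749, minus strand), had 171, 158 and 156 CPM in NC and 110, 109 and 107 CPM in shPRMT6. The shPRMT6 libraries lay close together, far below the lowest NC library. The mean fell from 162 ± 7.84 to 109 ± 1.72 CPM (SD, n = 3 each), to 67.1% of NC, and the log2 fold change was -0.58 (SE 0.0588, 95% interval -0.72 to -0.44, edgeR adjusted p = 0.00196).

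NFKBIE, which encodes IκBε, an inhibitor resynthesised more slowly (ENSG00000146232, chr6:44258166-44265788, minus strand), had 19.3, 17.5 and 16.2 CPM in NC and 9.28, 10.4 and 11.0 CPM in shPRMT6. No library of one group reached the other. Its mean was 17.7 ± 1.54 CPM in NC and 10.2 ± 0.883 CPM in shPRMT6 (SD, n = 3 each), or 57.9% of NC. The log2 fold change of -0.79 (SE 0.114, 95% interval -1.06 to -0.51, edgeR adjusted p = 0.00604) was the lowest estimate among the members that passed, and its interval overlaps those of NFKB1 and TNFAIP3.

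NFKBIZ encodes IκBζ, a nuclear IκB that acts as a cofactor at a subset of NF-κB targets such as IL6 (ENSG00000144802, chr3:101827991-101861022, plus strand). It had 185, 255 and 239 CPM in NC and 160, 169 and 156 CPM in shPRMT6. The shPRMT6 libraries were close together, and NC replicate 1 lay nearer to them than to the other NC libraries. The means were 226 ± 36.8 and 162 ± 6.84 CPM (SD, n = 3 each), or 71.4%, with a log2 fold change of -0.49 (SE 0.122, 95% interval -0.78 to -0.19, edgeR adjusted p = 0.0375). This was the least secure of the 6 calls. It was kept without NC replicate 1 (edgeR adjusted p = 0.00593) and lost without NC replicate 2 (0.0802), NC replicate 3 (0.115), shPRMT6 replicate 1 (0.110), shPRMT6 replicate 2 (0.0896) or shPRMT6 replicate 3 (0.114).

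TNFAIP3 and BIRC3 act on ubiquitin chains upstream of IKK. TNFAIP3 (ENSG00000118503, chr6:137867188-137883312, plus strand) encodes a ubiquitin-editing enzyme that ends signalling from TNF and Toll-like receptors. It had 50.6, 50.8 and 47.2 CPM in NC and 29.3, 29.6 and 29.7 CPM in shPRMT6. The shPRMT6 libraries were almost level, and the groups were far apart. The means were 49.5 ± 2.02 and 29.5 ± 0.178 CPM (SD, n = 3 each), or 59.6%. Its log2 fold change was -0.75 (SE 0.0682, 95% interval -0.91 to -0.58), and its edgeR adjusted p of 0.00149 was the smallest of the members. The spread of TNFAIP3 within groups was at percentile 3.53 among tested genes of like level. An antisense gene, AL357060.1, covers 1.88% of its exon bases.

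BIRC3, which encodes a ubiquitin ligase of the TNF receptor complex that also holds the non-canonical pathway in check (ENSG00000023445, chr11:102317450-102339403, plus strand), had 51.5, 68.7 and 39.0 CPM in NC and 37.8, 40.0 and 42.6 CPM in shPRMT6. The NC libraries were spread widely, and the lowest of them lay within the shPRMT6 range. The log2 fold change was -0.40 (SE 0.196, 95% interval -0.87 to 0.07, edgeR adjusted p = 0.210). It was -0.17 without NC replicate 2 and -0.58 without NC replicate 3.

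**Figure D3:**
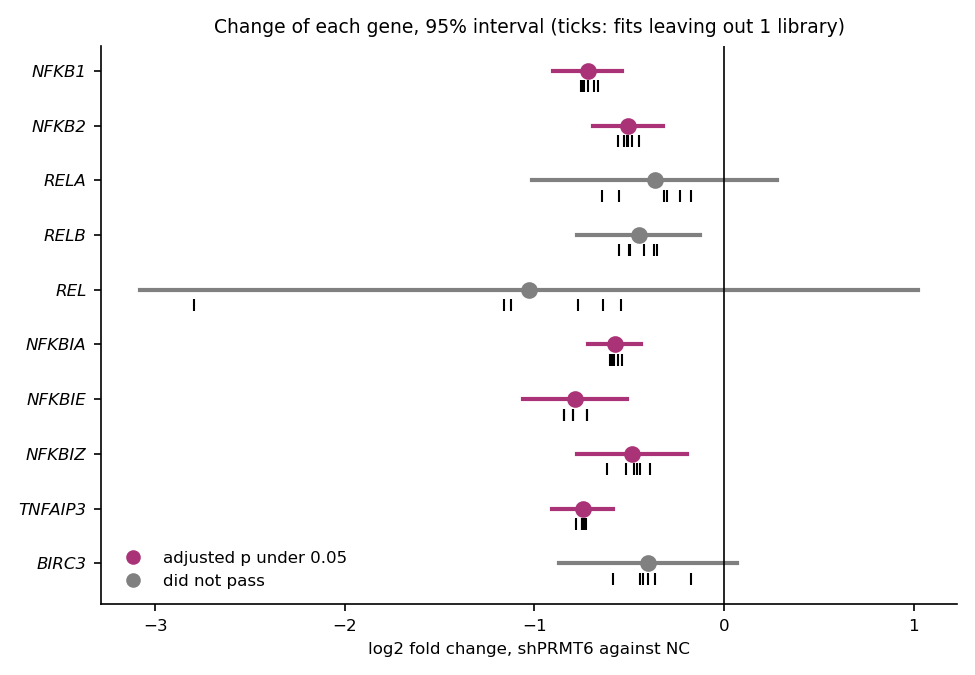
Log2 fold change of shPRMT6 over NC for the 10 members from edgeR, on a log2 axis. Points are estimates, bars are 95% intervals, colour shows whether the adjusted p was under 0.05, and ticks are the estimates with 1 library left out; NFKB1, NFKB2, NFKBIA, NFKBIE and TNFAIP3 have narrow intervals below 0, whereas those of RELA, REL and BIRC3 include 0.

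The exact permutation test over the libraries, two-sided, gave p = 0.1 for each of the 7 members without overlap, which is the smallest p that 20 splits of 3 against 3 allow. The same exact test gave p = 0.2 for RELA and 0.3 for REL and BIRC3.

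Levels per length were compared on the authors' FPKM scale. In NC the order of the means was NFKBIA at 57.4, NFKBIZ at 32.3, RELA at 16.9, NFKB2 at 13.2, RELB at 11.4, NFKB1 at 9.78, TNFAIP3 at 8.28, BIRC3 at 5.93, NFKBIE at 5.75 and REL at 0.346 FPKM. The order of the means was the same in shPRMT6, from 38.7 FPKM for NFKBIA to 0.170 FPKM for REL. Neighbours whose libraries overlapped in NC, and whose order is therefore unsure, were RELA with NFKB2, RELB with NFKB1, and BIRC3 with NFKBIE. In shPRMT6 they were RELA with NFKB2, and NFKB2 with RELB.

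The FPKM of the 5 subunits summed to 47.5, 52.0 and 55.6 in NC and to 37.9, 39.1 and 34.2 in shPRMT6. Those of NFKBIA, NFKBIE, NFKBIZ, TNFAIP3 and BIRC3 summed to 106, 114 and 108 in NC and to 74.2, 76.1 and 73.9 in shPRMT6. Neither sum overlapped between the groups. The second sum divided by the first was 2.24, 2.20 and 1.95 in NC and 1.96, 1.94 and 2.16 in shPRMT6, and here the groups overlapped. At the level of RNA, then, both sums were lower in shPRMT6 while the balance between them did not separate the groups; NFKBIA and NFKBIZ make up most of the second sum.

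**Figure D4:**
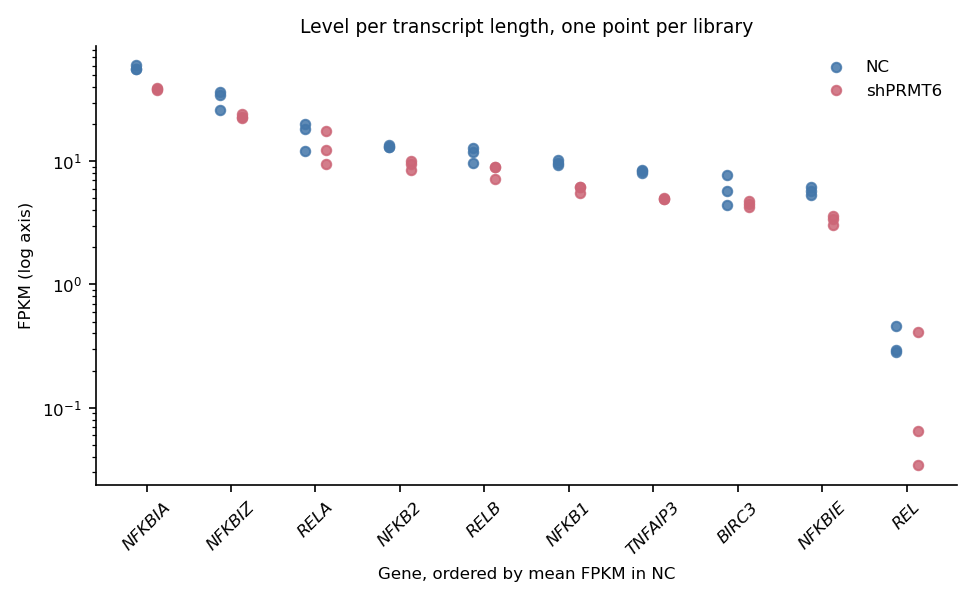
FPKM of the 10 members in each library, on a log axis, ordered by the NC mean. Points are libraries of each group; NFKBIA and NFKBIZ stand above the other members, and REL lies below 1 FPKM in every library.

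The other genes of the pathway were read from lists of the route to IKK, of other inhibitors and of target genes. On the route from receptors to IKK, 1 of 39 tested genes was lower (2.56%) and 3 were higher (7.69%), with a median log2 fold change of 0.08. Of all tested genes, 9.06% were lower and 9.51% higher, with a median of -0.01. Neither share on the route was thus above that of all tested genes. The kinase gene IKBKE was lower, at 20.9 CPM in NC and 16.2 CPM in shPRMT6 (log2 fold change -0.37, edgeR adjusted p = 0.0464). The adaptor gene BCL10 was higher (0.40, edgeR adjusted p = 0.0255), as were TBK1, a kinase gene related to IKBKE (0.38, adjusted p = 0.0448), and BTRC, which encodes the substrate receptor of the ligase that degrades IκB proteins (0.28, adjusted p = 0.0453). The antisense gene AC135279.3 covers 14.7% of the exon bases of TBK1. These calls lie near the threshold. IKBKE and BTRC lost it in each of the 6 fits with 1 library left out, BCL10 kept it only without NC replicate 1, and TBK1 only without NC replicate 2. Leaving out NC replicate 3, or either of shPRMT6 replicates 2 and 3, left 0 genes of the route called. The genes of the IKK complex itself did not pass, with log2 fold changes of 0.04 for CHUK, -0.17 for IKBKB and 0.14 for IKBKG, which were looked up after their values had been seen.

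Among other inhibitors of NF-κB, 5 of 19 tested genes were lower (26.3%) and 3 were higher (15.8%), with a median log2 fold change of -0.18. The shares of all tested genes were 9.06% lower and 9.51% higher. ZC3H12A, which encodes an RNase for inflammatory transcripts, was at 117 CPM in NC and 74.7 CPM in shPRMT6 (log2 fold change -0.65, edgeR adjusted p = 0.00240). TNIP1 and TNIP3, which encode binding partners of the TNFAIP3 protein, were lower by -0.38 (edgeR adjusted p = 0.00430) and -0.96 (0.00873) on the log2 scale. NFKBID, which encodes another nuclear IκB, had a log2 fold change of -1.06 (edgeR adjusted p = 0.00669), from 10.1 to 4.83 CPM. The fifth lower gene, BCL3, is a nuclear IκB gene named after its value was seen (-0.50, edgeR adjusted p = 0.0285). In the opposite direction, CYLD, a deubiquitinase gene, rose from 90.9 to 160 CPM (0.81, edgeR adjusted p = 0.0128), and TRAFD1 and N4BP1 were higher by 0.36 (0.0358) and 0.23 (0.0422). CYLD passed in each of the 6 fits with 1 library left out (edgeR adjusted p at most 0.0486), as did ZC3H12A, TNIP1, TNIP3 and NFKBID, whereas N4BP1 passed in none of these and TRAFD1 passed only without shPRMT6 replicate 3. Thus NFKBIA, NFKBIE and TNFAIP3 were lower in shPRMT6 while another negative regulator, CYLD, was higher.

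Of the 40 tested genes in the list of known NF-κB targets, 19 were lower (47.5%) and 5 were higher (12.5%). Their median log2 fold change was -0.52. Against these stand 9.06% lower and 9.51% higher of all tested genes, so the share higher was near that of all genes. CCND1, CSF2, MMP3 and SDC4 are in the study's heat map of RNAs lower in shPRMT6, drawn from these same libraries, so they are not independent evidence of direction. For CCND1, the study also reported lower mRNA by qRT-PCR and lower protein by immunoblotting in PRMT6-silenced cells. Without CCND1, CSF2, MMP3 and SDC4, 15 of 36 were lower and 5 higher, with a median of -0.50. The whole list was chosen with earlier results of these data known, so the remaining genes are not independent evidence either. The lower genes with the smallest p were the syndecan gene SDC4 (-1.67), the protease gene MMP3 (-3.42), the cyclin gene CCND1 (-1.07) and the neutrophil chemokine gene CXCL8 (-0.96, 2307 CPM in NC and 1188 CPM in shPRMT6), with edgeR adjusted p of 0.000175, 0.000211, 0.000357 and 0.000504. The interleukin, colony stimulating factor, LIF and TNF genes of the list were looked up after their values had been seen. Lower were CSF2 at -2.26, LIF at -0.73, IL6 at -0.62 and IL1B at -0.51 (edgeR adjusted p = 0.000510, 0.000727, 0.00559 and 0.00300), while TNF at 0.61, IL1A at 0.07, CSF3 at -0.23, IL32 at -0.39 and CSF1 at -0.59 did not pass. The direction was not shared by all targets. The protease gene MMP1 was higher by 0.92, the survival gene BCL2L1 by 0.91, the growth factor gene BMP2 by 0.89 and the early response gene IER3 by 0.47, with edgeR adjusted p of 0.000658, 0.00237, 0.00227 and 0.00187. Antisense genes cover 43.0% of the exon bases of BCL2L1, 26.5% of IER3, 10.3% of CCND1 and 7.61% of MMP1, and reads from both strands cannot be told apart, since the library kit does not mark strand.

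**Figure D5:**
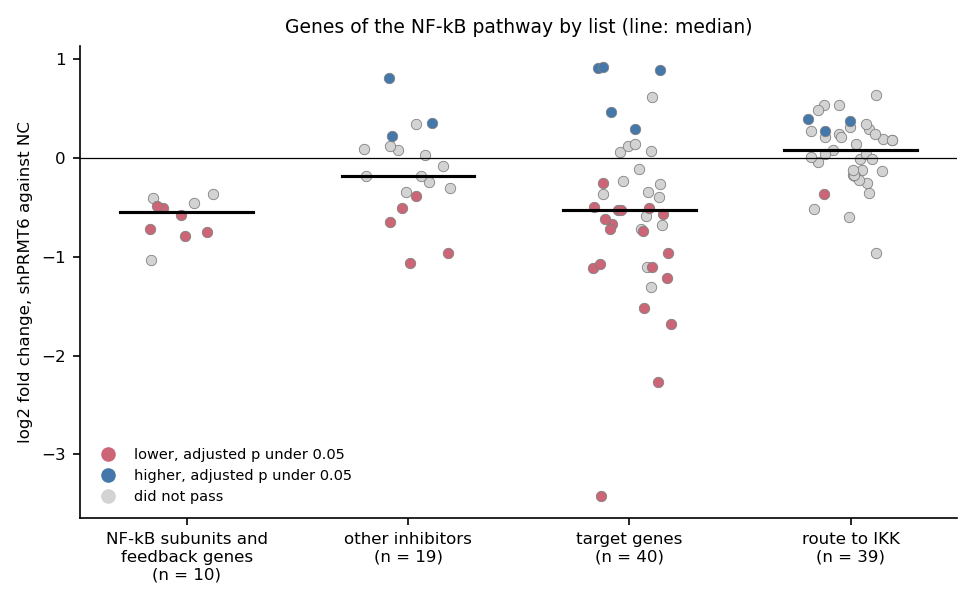
Log2 fold change of shPRMT6 over NC for each tested gene of the members and of the lists of other inhibitors, target genes and the route to IKK, on a log2 axis. Points are genes, coloured by direction where the adjusted p was under 0.05, and lines are medians at -0.54, -0.18, -0.52 and 0.08.

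Over all tested genes, the shares called were close with and without a κB match. Of 1988 tested genes with a match in a RefSeq promoter window, 10.9% were lower and 11.1% higher, and of 9808 with a window and no match, 10.3% were lower and 11.1% higher. RELA is the member with an entry and no match, and REL and BIRC3 hold matches. None of these passed the test, and their replicates were spread so widely that a fall could not be told from none. Whether a match bears on the change of a member was not tested. Among the target genes, 14 of 29 with an entry held a match. Of those 14, 8 were lower and 0 higher, while 7 of the remaining genes with an entry were lower. Of all 40 tested targets, with or without an entry, 47.5% were lower and 12.5% higher. Among the other inhibitors, 7 of 17 with an entry held a match, of which 4 were lower and 1 higher, while 1 was lower without a match. On the route to IKK, 5 of 33 with an entry held a match, of which 0 were lower and 0 higher, while 1 was lower without a match. Higher genes without a match were not counted in these lists, so the higher genes with a match have no count to be set against. Whether a match goes with the direction of change in the lists was not tested.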

How the data were processed

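RNA was sequenced from 3 NC and 3 shPRMT6 libraries of U87 cells, grouped by the labels. The authors deposited unnormalized read counts for each gene. Beside these the authors gave FPKM values, in which every gene with 0 counts is listed at 1e-04. The submitters' processing notes list HISAT2, HTSeq 0.13.5 and GRCh38. The annotation, the strand setting and the program behind the FPKM values are not given in the sources used here, and the library kit does not mark strand. The sources differ on RNA extraction (Trizol or a column kit).

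Of 60612 identifiers, 60401 matched a symbol. Counts were tested with edgeR 4.0.16 in R 4.3.3 (TMM scaling, filterByExpr by group, quasi-likelihood test, Benjamini-Hochberg adjustment over 18106 genes), with the threshold at 0.05. Errors are SD over 3 libraries, the depth was 56388161 to 75887696 counts, and intervals are 95%. Totals this large leave the spread between libraries above counting error, with a chi-square per degree of freedom of 48.2 to 78.4. Positions and overlaps come from GENCODE 29, and 75-base stretches were compared on either strand. Target gene SOD2 was not matched.

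The members and lists were chosen with earlier results of these data known. The rule named PRMT6, the 10 members and, in each of the 3 other lists, up to 4 genes with the smallest p in each direction among those past the threshold with a mean of at least 1 CPM. Genes named otherwise are said to have been looked up after their values were seen.

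Alternatives were DESeq2 1.42.0, scaling without factors or with those of the upper quartile, a minimum of 10 counts in all libraries or of 1 count in 1 library, the replicate number as a block, the fold threshold of the methods, and each library left out. In addition, limma 3.58.1 was run on log2 FPKM with a pseudocount of 1 or 0.1 for genes averaging 1 FPKM or more, and with a pseudocount of 1 for all genes. A fit without the 37 mitochondrial genes was chosen after seeing the data.

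The programs were tested on simulated data after the real counts had first been fitted. Among 17519 genes, edgeR recovered 51% of 100 genes changed by 1 and 89% of 100 changed by 2 on the log2 scale, with 5.41% false calls. A first version with the smaller change alone had not met the recovery and false-call limits set for all tools, and the larger change was then added and new limits set for edgeR only, with its recovery judged at the larger change. The fits themselves were not altered. DESeq2 recovered 69% and 97% of 17511 genes' changed sets, with 32.0% false calls, and limma 67.9% and 94.6% with 5.88% among 12541 genes. A change of the size seen in the members can therefore be missed.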

Additional observations from a re-analysis of the deposited data

How the results depend on the processing

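NFKB1, NFKB2, NFKBIA, NFKBIE and TNFAIP3 kept an adjusted p under 0.05 in each alternative fit, including the 6 that each left out 1 library, and none of the results turned its direction. With 1 library left out, the log2 fold change ranged from -1.0004 to -0.73 for PRMT6, from -0.55 to -0.35 for RELB, from -2.80 to -0.54 for REL and from -0.61 to -0.39 for NFKBIZ. The number of members called lower was then 5 to 6, with RELB in place of NFKBIZ without NC replicate 2 and REL in place of NFKBIZ without shPRMT6 replicate 1. Over all genes 857 to 1522 were then lower and 898 to 1661 higher, against 1641 and 1721 with every library, and both numbers fell by more than 1.5 times without NC replicate 3 (928 and 1011), shPRMT6 replicate 1 (919 and 952), shPRMT6 replicate 2 or shPRMT6 replicate 3 (920 and 938). On the route to IKK 0 to 1 were lower and 0 to 2 higher, and of the other inhibitors 1 to 2 were higher, with a median of -0.17 to -0.066, the latter without NC replicate 2. DESeq2 called RELB (-0.44), 2842 genes lower and 2940 higher, and on the route to IKK 4 lower and 8 higher. limma on log2(FPKM + 1) without a filter no longer called PRMT6 (-0.47) or NFKBIZ (-0.45, adjusted p = 0.105), called 0 lower and 1 higher on the route to IKK, and gave a median of -0.25 over the targets. With at least 1 count in any library, the route to IKK had 0 lower and 1 higher, and 1 of the other inhibitors was higher. Under the fold threshold of the methods, 476 genes were lower and 596 higher, with 0 members, 0 lower and 0 higher on the route to IKK, 1 lower and 0 higher among other inhibitors, and 9 lower and 0 higher among the targets. Samples with the same replicate number did not deviate together (correlations of -0.0248, -0.0171 and -0.0301), so the numbers do not pair them. With the replicate block, 908 genes were lower and 950 higher, PRMT6 (-0.88, adjusted p = 0.0803) and NFKBIZ (-0.47, 0.0617) were no longer called, RELB was (-0.45, 0.0387), and 0 genes were higher on the route to IKK and 1 among the other inhibitors. REL has no value in the FPKM fits with a filter. The cause of these differences was not tested. The 3 libraries per group limit what can be said of RELA, REL and BIRC3, whose replicates were spread widely.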
